A study of Mus musculus with 46 samples.

Results

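The 29 genes described here encode proteins of the peroxisome: 12 peroxins (Pex genes), which build the organelle and carry proteins into it, and 17 enzymes, transporters and membrane proteins that work in it. They were listed by name because the transcripts of Pex11a and Slc27a2 were lower in tumors with disrupted Arid1a, so the list was chosen by the fold changes of these 2 genes in that contrast, which is given below as a description, without a test. All 29 were found among the 56980 genes of one count table and the 56941 genes of the other, and all 29 had enough reads to be tested in both. The data are bulk RNA-seq counts of 46 mouse synovial sarcomas, each from its own mouse. Each tumor expressed a human fusion oncogene from the Rosa26 locus after a limb injection of TATCre, a cell-permeant Cre protein, at 8 days of age: SS18::SSX2 in the hSS2 tumors and SS18::SSX1 in the hSS1 tumors.

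The hSS2 table held 13 control tumors with the fusion and no floxed subunit, 8 tumors homozygous for floxed Pbrm1 (Pbrm1-fl), 8 for floxed Arid1a (Arid1a-fl) and 8 for floxed Arid1b (Arid1b-fl). The hSS1 table held 5 control tumors and 4 Pbrm1-fl tumors. Pbrm1 belongs to PBAF and Arid1a and Arid1b to CBAF, forms of the BAF chromatin remodeling complex. SS18 is itself a subunit of CBAF and of a further form, GBAF. Bulk tumors also hold host cells, in which recombination of the floxed genes was not measured. Males and females were used. In bulk tumors, fewer cells of a type and less RNA per cell cannot be told apart.

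Peroxisomes are small organelles bounded by one membrane that shorten very long-chain and branched fatty acids by beta-oxidation, begin the synthesis of ether lipids and break down the hydrogen peroxide that their oxidases make. Their membrane proteins are inserted with the help of Pex3, Pex16 and Pex19, their matrix enzymes are recognized in the cytosol by Pex5 or Pex7 and handed to a docking complex that includes Pex13 and Pex14, and the receptors are then recycled. In liver, many of these genes respond to the fatty acid receptor PPAR alpha, and Pex11a, a membrane elongation factor, is among the inducible ones. Slc27a2 activates and takes up very long-chain fatty acids and is best known from liver and kidney.

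The promoters of 4 genes are printed because the results turn on them: Pex11a and Slc27a2, for which the list was made, Pex13, which kept its call in every setting tried in hSS2 Pbrm1-fl tumors, and Ehhadh, the one member past the edgeR interaction test between the fusion backgrounds over all tumors, a call that did not hold in every setting. Each line gives the 250 bases before the start site of the RefSeq transcript (GRCm38.p6), read 5′ to 3′ on the strand of the gene. The windows are chr7:79743132-79743381 (minus strand) for Pex11a, chr2:126552774-126553023 (plus strand) for Slc27a2, chr11:23665884-23666133 (minus strand) for Pex13 and chr16:21787835-21788084 (minus strand) for Ehhadh. Capitals mark in Pex11a the 31 bases that separate it from Wdr93, which is read from the other strand, in Slc27a2 the reverse complement of AGGTCA, the hexamer that nuclear receptors bind, in Pex13 the cyclic AMP response element TGACGTCA, and in Ehhadh the reverse complement of CCAAT.
Pex11a: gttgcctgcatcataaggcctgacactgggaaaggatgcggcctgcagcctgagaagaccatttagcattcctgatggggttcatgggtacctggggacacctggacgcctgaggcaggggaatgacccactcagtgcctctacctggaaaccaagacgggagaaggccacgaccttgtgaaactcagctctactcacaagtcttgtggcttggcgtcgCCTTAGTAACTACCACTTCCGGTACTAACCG
Slc27a2: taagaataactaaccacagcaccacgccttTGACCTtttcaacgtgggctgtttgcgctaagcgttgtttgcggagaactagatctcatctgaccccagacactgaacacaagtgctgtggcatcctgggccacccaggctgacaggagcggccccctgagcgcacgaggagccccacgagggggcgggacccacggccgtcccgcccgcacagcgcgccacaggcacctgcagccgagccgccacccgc
Pex13: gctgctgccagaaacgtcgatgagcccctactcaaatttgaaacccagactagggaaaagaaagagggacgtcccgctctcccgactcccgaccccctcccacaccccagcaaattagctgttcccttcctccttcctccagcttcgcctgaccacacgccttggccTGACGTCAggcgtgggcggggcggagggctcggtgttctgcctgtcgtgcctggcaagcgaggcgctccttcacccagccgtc
Ehhadh: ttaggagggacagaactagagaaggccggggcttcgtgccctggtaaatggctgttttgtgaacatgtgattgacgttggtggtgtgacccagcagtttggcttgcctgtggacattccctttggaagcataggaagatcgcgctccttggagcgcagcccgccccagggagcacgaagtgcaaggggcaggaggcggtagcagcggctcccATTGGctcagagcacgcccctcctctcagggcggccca

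RefSeq windows of 300 bases, with 250 bases before and 50 after the start, were matched for 22 of the 29 members, and both strands were searched. The direct repeat to which PPAR binds with RXR, AGGTCA followed after any 1 base by AGGTCA, was in none of the 22 and in 0.0396% of 32851 promoters, and with up to 2 mismatches it was in the Cat window and in 3.86% of all windows. A single AGGTCA, which that repeat contains, was in the windows of Cat, Phyh, Scp2 and Slc27a2 and in 16.3% of all. TGACGTCA was in Pex13 alone among the members and in 1.79% of all promoters, CACGTG in Gnpat and in 7.15%, and the NRF1 motif, GCGCAT followed directly by GCGC, in Nudt7 and in 0.971%. TCAAGGTCA, the hexamer as bound by ERR, was in no member and in 0.423% of promoters. CCAAT, the most common of these motifs, was in 7 members (Agps, Cat, Ehhadh, Pex16, Pex5, Pex7 and Pxmp4) and in 37.4% of all promoters. Pex2, Pex19, Abcd2, Hsd17b4, Amacr, Crat and Pxmp2 had no window.

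The 29 members were transcribed at very different levels. As CPM (counts scaled to the library size, with TMM factors) per kilobase of annotated exon, averaged over all 37 hSS2 tumors, Phyh, which starts the alpha-oxidation of phytanic acid, was highest at 38.4, followed by the peroxide-degrading enzyme Cat at 30.5, the bifunctional enzyme Hsd17b4 at 22.7, the membrane protein chaperone Pex19 at 20.7 and the ether lipid acyltransferase Gnpat at 20.6. Within the other roles the highest were the import receptor Pex5 at 14.1, the ubiquitin ligase subunit Pex2 at 12.3, the transporter Abcd3 at 9.15 and the membrane protein Pxmp4 at 9.95. At the other end were Pex11a at 2.44, Ehhadh at 2.42, the import receptor Pex7 at 1.76, the transporter Abcd2 at 1.31 and Slc27a2 at 0.513. Phyh and Cat were also the highest of the 29 in the hSS1 tumors, at 30.6 and 30.5. There Slc27a2 averaged 2.87 and ranked 24th of 29. The tables were normalized separately and background and table coincide, so levels were not compared between backgrounds.

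Tumors of one genotype also differed in some members far more than in others. Among the 13 hSS2 controls, Amacr, the racemase for branched fatty acids, ran from 5.62 to 44.7 CPM (median 12.6), Abcd2 from 3.42 to 20.8 (median 8.55) and Crat from 49.9 to 181 (median 83.6). Pex13 ran only from 28.4 to 38.3 CPM, Nudt7 from 11.8 to 17 and the ether lipid enzyme Agps from 52.8 to 74.8. The SE of the log2 fold change in hSS2 Pbrm1-fl tumors was 0.23, 0.39 and 0.19 for the first 3 and 0.06, 0.10 and 0.06 for the other 3.

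**Figure D1:**
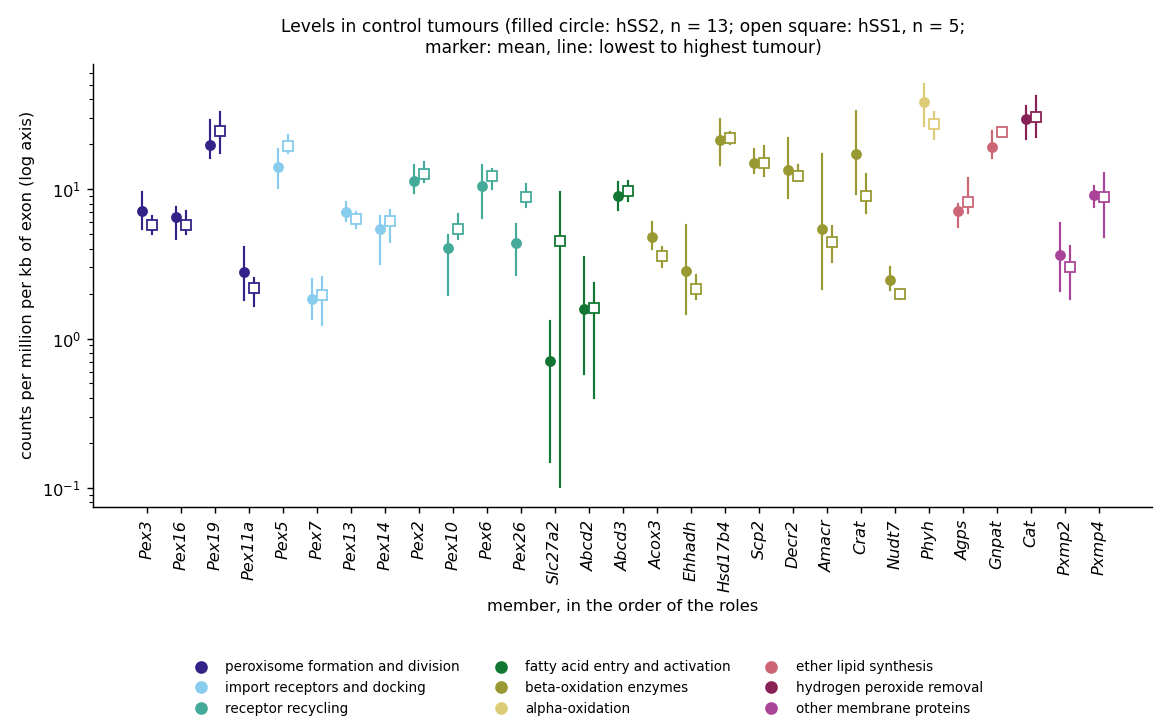
Level of each of the 29 members in the control tumors, in CPM per kilobase of exon on a log axis, with members ordered and colored by role. Filled circles are means of the 13 hSS2 controls and open squares means of the 5 hSS1 controls, from tables normalized separately, and lines run from the lowest to the highest tumor. Phyh and Cat lie at the top, and the widest line is that of Slc27a2 in hSS1 controls.

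Libraries held 10137668 to 21294657 counts. The targeted genes were checked first: Pbrm1 ranged from 171 to 316 CPM in hSS2 controls and from 95 to 139 in hSS2 Pbrm1-fl tumors, and from 275 to 373 and from 102 to 252 in the corresponding hSS1 groups. Arid1a ranged from 229 to 276 CPM in Arid1a-fl tumors. Of the 13 hSS2 controls, 12 lay above that, at 422 or more, while the library labelled hSS2 control replicate 9 stood at 238, within the range of the floxed group, so values without it are given where they differ. Arid1b overlapped between its controls (222 to 686 CPM) and Arid1b-fl tumors (111 to 347 CPM), and its difference did not pass the test (edgeR adjusted p = 0.145). The mouse numbers in the labels fell in different ranges by group. All Pbrm1-fl hSS2 mice were numbered 2000 or above, all Arid1a-fl mice below 1000 and all Arid1b-fl mice from 1000 up to 2000, whereas the hSS2 controls spread over all 3 ranges (4, 5 and 4 tumors). All 4 hSS1 Pbrm1-fl mice were numbered from 1000 up to 2000, as were 3 of the 5 hSS1 controls, and the other 2 were numbered 2000 or above. Values against the controls of the same number range are therefore given beside the results.

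To check the labelled tissue and the other cells a bulk tumor can hold, marker lists were summed in each library. Of 7 hepatocyte and kidney tubule genes 2 had enough reads to be tested, and the list summed to 4.12 to 460.4 CPM over the tumors. Umod had no counts in 5 of the 6 genotype groups, Slc34a1 in 3 and Alb in both hSS1 groups. Of the synovial sarcoma list (Tle1, Sox2, Bcl2, Krt8, Krt18, Zic2, Fgfr3 and Sox11) all 8 genes were detected in each group, and their sum was 438 to 1388 CPM over the 46 tumors. The 12 skeletal muscle genes summed to between 7.56 and 52270.1 CPM over the hSS2 controls and to 7.24 to 762 CPM over the hSS1 tumors.

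In Arid1a-fl tumors, transcripts of Pex11a and Slc27a2 were low, and the fitted log2 differences of the other 27 members lay between -0.97 and 0.29. These values chose the members and are given as a description. Pex11a had 5.76 to 13.1 CPM in the hSS2 controls, with a median of 8.34 and a mean of 8.85 ± 2.09 (SD, n = 13). The 8 Arid1a-fl tumors had 4.14, 3.96, 5.1, 3.38, 4.5, 5.59, 2.8 and 1.32 CPM, a mean of 3.85 ± 1.35 (SD, n = 8). Every one of the 8 lay below all 13 controls. The log2 fold change was -1.20 (SE 0.19), and -1.19 against the 5 controls of the same number range. Raw counts of Pex11a in this group were 17 to 91, against 89 to 224 in the controls. Control replicate 9, whose Arid1a lay within the range of the floxed group, had 10.5 CPM of Pex11a, above the control median.

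Slc27a2, the very long-chain acyl-CoA synthetase, was a rare transcript in hSS2 tumors. Controls had 0.564 to 4.90 CPM, with a median of 2.54 and a mean of 2.66 ± 1.15 (SD, n = 13), from 8 to 89 counts. The Arid1a-fl tumors had 0.17, 0.312, 0.453, 0.795, 0.438, 0.86, 0.0666 and 0.0 CPM, from 0 to 14 counts. Of the 8, 6 lay below every control, and control replicate 3, at 0.564, lay inside the range of the floxed group. Control replicate 9, with Arid1a at the floxed level, had 4.19 CPM of Slc27a2, above the control median. The tumor with 0 counts allows up to 0.233 CPM by counting error alone, at 3 counts. Its log2 fold change was -2.75 (SE 0.47), -3.03 against the controls of the same number range and -2.68 without control replicate 9.

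**Figure D2:**
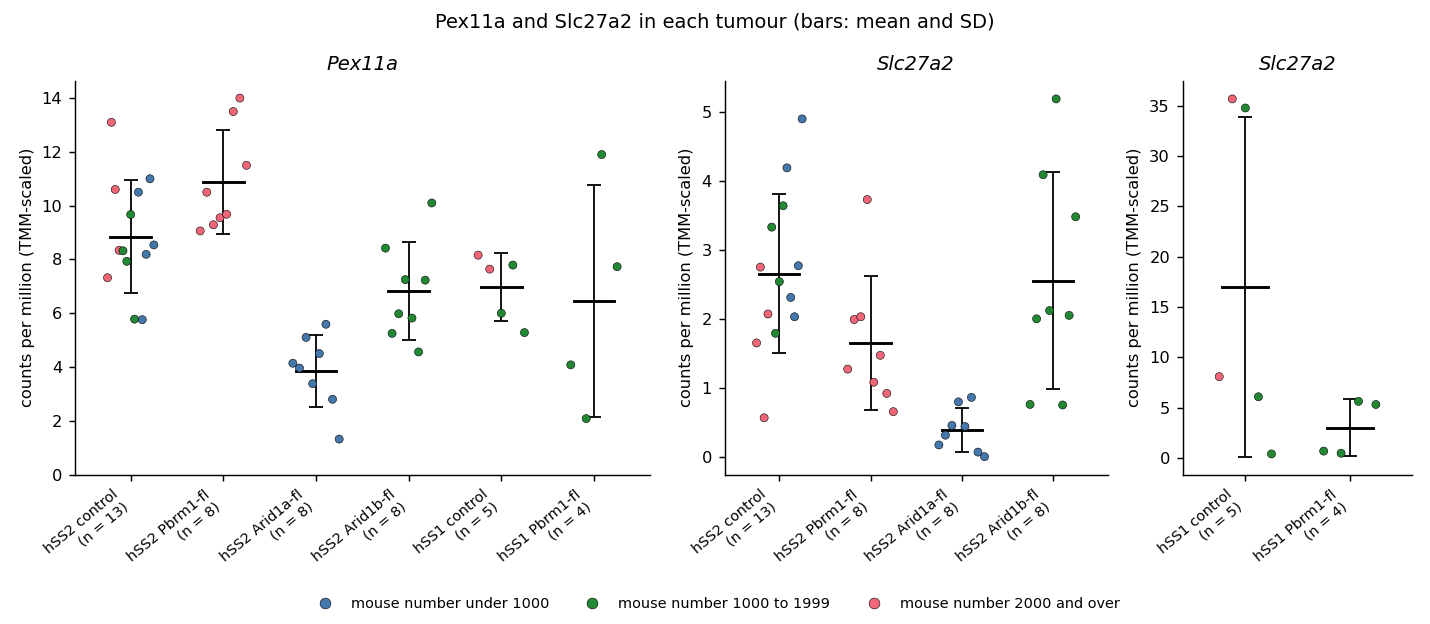
Level of Pex11a and Slc27a2 in CPM in every tumor of the 6 genotype groups, 1 point per tumor colored by mouse number range, with bars for the mean and SD. Slc27a2 is drawn in separate panels for hSS2 and hSS1 because of its wider range in hSS1. All 8 Arid1a-fl points of Pex11a, 1.32 to 5.59 CPM, lie below the 13 hSS2 controls, and the hSS1 controls of Slc27a2 spread from 0.384 to 35.7 CPM.

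Beside these 2 genes, which alone of the 29 had an edgeR adjusted p under 0.05 in this contrast (3.17% of the 20083 genes tested did, 1.76% as lower), the largest fitted differences were in Abcd2, a fatty acid transporter, at -0.97 (SE 0.40) and in the carnitine acetyltransferase Crat at -0.48 (SE 0.19). Because the same contrast was used to choose the members, nothing is read from that count. Against the 5 controls of the same number range 4 members had such a p, where 6.8% of genes did, with Pex6 at 0.56 and Pex7 at -0.47 beside the first 2. Over the 29 members 12 differences were positive and 17 negative, with a median log2 fold change of -0.08 beside -0.04 over all genes tested. The peroxins other than Pex11a ranged from -0.27 (Pex7) to 0.28 (Pex6 and Pex10), and the 8 beta-oxidation enzymes from -0.48 (Crat) to 0.29 (Scp2, the thiolase and sterol carrier). The ether lipid enzymes Agps and Gnpat stood at 0.21 and 0.19, and Cat at 0.08. Summed over the 29 members, the Arid1a-fl tumors had 1034 to 1188 CPM and the controls 969 to 1274 CPM.

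Pex11g, a relative of Pex11a that is not a member, stood at 0.27 (SE 0.23) on the log2 scale. Around Pex11a (chr7:79735957-79743131), the gene Wdr93 starts 31 bases away on the other strand and had a log2 fold change of -0.14 (SE 0.40), and Plin1, the fat droplet protein of adipocytes, lies 3053 bases away on the other side and had -2.99 (SE 1.28). Around Slc27a2 (chr2:126552407-126588243), Hdc lies 5423 bases away and had 0.03 (SE 0.89), and Atp8b4 lies 51732 bases away and had -0.89 (SE 0.65). An antisense gene inside Pex11a, Gm44706, reached at most 0.342 CPM. The lincRNA gene Gm26697 (chr2:126521202-126553662) overlaps Slc27a2 on the other strand, and its level is not given here. The printed Slc27a2 window, placed by the RefSeq start, lies inside the annotated coordinates of both Slc27a2 and Gm26697.

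Several marker lists had mostly 1 sign in this contrast, and no gene of the cell type, synovial sarcoma or proliferation lists passed the test. Of the 12 listed adipocyte genes 8 were tested, and all 8 were lower in Arid1a-fl tumors by the sign of their fold change, with a median of -2.56 (4 had an unadjusted p under 0.05). Their sum was 14.9 to 459 CPM in the controls and 17.7 to 51.5 CPM in Arid1a-fl tumors. With the adipocyte score as a covariate the log2 fold change was -1.21 for Pex11a (-1.20 without it), -2.67 for Slc27a2 (-2.75) and -0.59 for Abcd2 (-0.97). All 12 muscle genes also had negative signs (median -1.46, none with an unadjusted p under 0.05), 3 of 4 tested lymphocyte genes did, and all 10 proliferation genes had positive ones. With the muscle score as a covariate Slc27a2 stood at -2.71 and Abcd2 at -0.70. Positive signs were seen in all 6 tested erythroid genes (median 0.99) and in 5 of 9 endothelial genes (median 0.01). They were seen in 2 of 10 macrophage genes (median -0.29), 3 of 8 synovial sarcoma genes and 0 of 2 hepatocyte and kidney tubule genes. The part of these cell types and of proliferation in the values of Pex11a, Slc27a2 and Abcd2 was not tested.

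Among the 13 hSS2 controls, no correlation of Pex11a or Slc27a2 with each other or with the adipocyte score passed a permutation test with 100000 resamples. The log2 levels of the 2 genes had Pearson's r = -0.09 (two-sided permutation p = 0.775) and Spearman's rho = 0.19 (permutation p = 0.543), and r was -0.20 after leaving out the 2 tumors farthest from the median of Pex11a. With the adipocyte score, Pex11a had r = -0.30 (permutation p = 0.313) and rho = -0.20 (permutation p = 0.505), and Slc27a2 r = 0.37 (permutation p = 0.214) and rho = 0.34 (permutation p = 0.252). Leaving out the 2 tumors with the most extreme x values gave r = -0.45 and -0.04. Adjusted over these 3 relations, the permutation p-values for r were 0.775, 0.469 and 0.469, and those for rho 0.543 each. Centred within the mouse number ranges, r was 0.09, -0.19 and 0.28. Without control replicate 9, r was -0.19, -0.25 and 0.52 in the same order (permutation p = 0.562, 0.441 and 0.0728). Adjusted over the 3 relations, these permutation p-values were 0.562, 0.562 and 0.218.

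In hSS2 Pbrm1-fl tumors, 7 of the 29 members passed the test, 5 higher and 2 lower, where 7.35% of all genes tested passed (3.4% higher and 3.95% lower). The list was picked for the Arid1a-fl contrast, but with earlier results of these data known. Higher were Pex16, Pex2, Phyh, Scp2 and Pxmp4, by 0.32 to 0.44 on the log2 scale, and lower were Pex13 and Ehhadh. The signs of 22 members were positive and of 7 negative, with a median log2 fold change of 0.13 beside -0.00424 over all genes. This contrast and those of Arid1a-fl, for which the list was picked, and Arid1b-fl share the 13 controls. The members summed to 1138 to 1320.2 CPM, against 969 to 1274 CPM in the controls.

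Pex16 (chr2:92374676-92381217), which helps place membrane proteins in the new peroxisome, had 8.29 to 13.4 CPM in the controls (median 11.8, mean 11.5 ± 1.47, SD, n = 13) and 14.2 to 18.1 in Pbrm1-fl tumors (median 15.4, mean 15.6 ± 1.25, SD, n = 8). The groups did not overlap. It rose by 0.44 on the log2 scale (SE 0.11, adjusted p = 0.013 by the quasi-likelihood test of edgeR). Pex3, Pex19 and Pex11a, which act in formation and division too, had -0.10, 0.10 and 0.30, and none passed.

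Pex13 (chr11:23646479-23665959), a membrane protein of the docking complex, had 28.4 to 38.3 CPM in the controls (median 32.6, mean 32.7 ± 2.81, SD, n = 13) and 25.4 to 30.8 in Pbrm1-fl tumors (median 27.8, mean 27.7 ± 1.70, SD, n = 8). All 8 floxed tumors lay below the control median and 6 below every control. It fell by 0.24 on the log2 scale (SE 0.06, edgeR adjusted p = 0.00758). Its docking partner Pex14 had 19.8 to 41.3 CPM in the controls and 35.5 to 51.7 in the floxed tumors, and its difference of 0.31 missed the threshold (adjusted p = 0.0651).

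Among the genes for receptor recycling, all 4 had positive fold changes and 1 passed. Pex2, a RING-type ubiquitin ligase subunit, had 21.3 to 33.2 CPM in the controls (median 24.1) and 25.7 to 39 in Pbrm1-fl tumors (median 33.5), and 4 of 8 lay above every control. It rose by 0.35 on the log2 scale (SE 0.10, edgeR adjusted p = 0.0252). The ATPase Pex6, its membrane anchor Pex26 and the ligase subunit Pex10 had 0.38, 0.24 and 0.22.

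Ehhadh (chr16:21761287-21787807), the bifunctional hydratase and dehydrogenase that also acts on dicarboxylic acids, had the largest fold change of the 7. Controls had 4.33 to 17.2 CPM (median 7.89, mean 8.46 ± 3.65, SD, n = 13) and Pbrm1-fl tumors 2.2 to 7.63 (median 4.51, mean 4.95 ± 1.88, SD, n = 8). All 8 lay below the control median and 4 below every control. It fell by 0.77 on the log2 scale (SE 0.24, edgeR adjusted p = 0.043). Control replicates 12 and 13, from mice numbered below 1000, were high at 17.2 and 14.9 CPM, and the other 11 controls reached 8.58. The difference was -0.64 with replicate 12 left out (adjusted p = 0.0814), -0.69 with replicate 13 left out (adjusted p = 0.072) and -0.37 against the 4 controls of the same number range (adjusted p = 0.66).

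Hsd17b4, the other bifunctional enzyme of peroxisomal beta-oxidation, had 72.4 to 99.5 CPM in Pbrm1-fl tumors within a control range of 49.8 to 100, and its log2 fold change of 0.22 did not pass. Scp2 had 44.4 to 64.3 CPM in the controls (median 52.3) and 49.9 to 74.7 in the floxed tumors (median 68.7), with 5 of 8 above every control, and it rose by 0.33 (SE 0.10, edgeR adjusted p = 0.04). Acox3, Decr2 and Nudt7, an oxidase, a reductase and a coenzyme A hydrolase, had 0.21, 0.23 and 0.13, and Amacr and Crat -0.25 and 0.03.

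Phyh had 50 to 96 CPM in the controls (median 69.7) and 67.3 to 137 in Pbrm1-fl tumors (median 95.5), with 4 of 8 above every control, and it rose by 0.42 (SE 0.13, edgeR adjusted p = 0.041). Pxmp4, a peroxisomal membrane protein, had 23.7 to 32.5 CPM in the controls (median 28.4) and 29.7 to 41.5 in the floxed tumors (median 36.3), with 6 of 8 above every control, and it rose by 0.32 (SE 0.10, edgeR adjusted p = 0.0434). Agps, Gnpat, Cat, Abcd3 and Pxmp2 lay between -0.10 and 0.15, with none past the test. Slc27a2 had 0.653 to 3.73 CPM (median 1.37) with all 8 tumors inside the control range, and its difference of -0.69 (SE 0.41) had an adjusted p of 0.329.

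**Figure D3:**
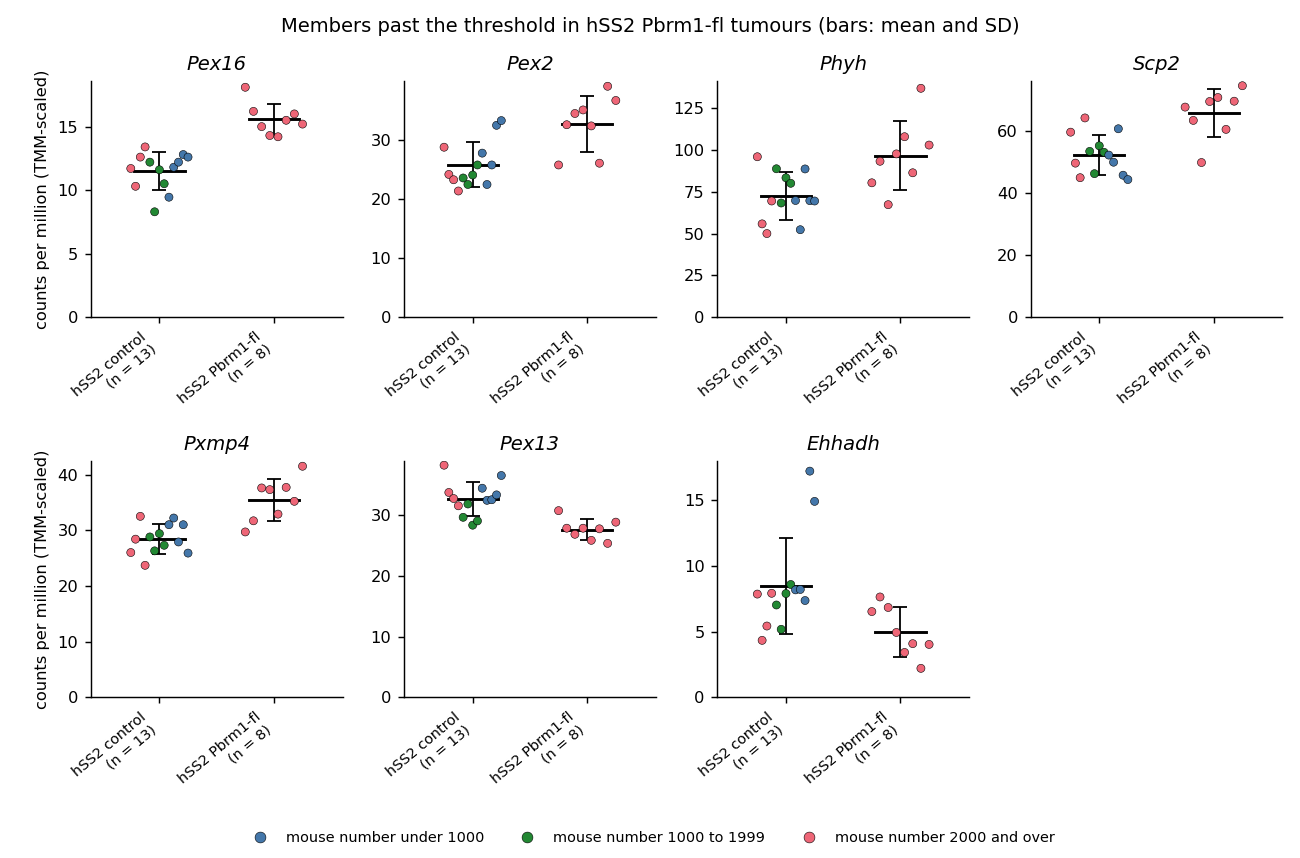
Level in CPM of the 7 members that passed the test between hSS2 control and Pbrm1-fl tumors, 1 point per tumor colored by mouse number range, with bars for the mean and SD. Pex16 is the one whose groups do not overlap (8.29 to 13.4 against 14.2 to 18.1 CPM), and the 2 highest Ehhadh controls stand apart at 14.9 and 17.2 CPM.

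Against only the 4 controls of the same number range, 1 of the 29 passed, where 2.47% of genes did. It was Pex13, at -0.30 (edgeR adjusted p = 0.0152). The fold changes of Pex16, Pex2, Phyh and Pxmp4 stayed near their size, at 0.37, 0.43, 0.51 and 0.36, with adjusted p-values of 0.237, 0.0837, 0.14 and 0.194, and that of Scp2 was 0.27 (adjusted p = 0.406). Leaving out 1 of the 21 tumors at a time, Pex13 and Pex16 passed in all 21 fits, Pex2 and Ehhadh in 12, Phyh in 9, Scp2 in 8 and Pxmp4 in 5. Without control replicate 9, 3 members passed, 1 higher and 2 lower (6.16% of all genes passed). Of the 8 synovial sarcoma markers 7 had negative signs in this contrast (median -0.58), 5 with an unadjusted p under 0.05 and 1 past the test, and they summed to 438 to 1035 CPM against 492 to 1151 in the controls. All 6 tested erythroid genes (median -1.51) and all 12 muscle genes (median -0.85) had negative signs and all 10 macrophage genes positive ones, with none past the test. The part of these genes in the values above was not tested.

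Other genes of the organelle were also counted. Of 38 further peroxisomal genes 36 were tested and 6 passed in hSS2 Pbrm1-fl tumors, 4 higher and 2 lower (7.35% of all genes passed). Against controls of the same number range 2 passed, 1 higher and 1 lower (2.47% of all genes). With 1 tumor left out 3 to 8 passed (5.15% to 9.6% of all genes). The acyl-CoA thioesterase Acot8 rose by 0.58 (SE 0.10, edgeR adjusted p = 6.07e-04), with 5 of 8 tumors above all controls. The Pex5-related gene Pex5l rose by 1.91 (SE 0.51, adjusted p = 0.018) and the isocitrate dehydrogenase Idh1 by 0.40 (SE 0.12, adjusted p = 0.0264). The epoxide hydrolase Ephx2 fell by 1.63 (SE 0.46, adjusted p = 0.0242) and the fission factor Mff by 0.28 (SE 0.08, adjusted p = 0.0328). Of 14 mitochondrial beta-oxidation genes 2 passed, the electron transfer flavoprotein subunits Etfa at 0.29 (adjusted p = 0.0442) and Etfb at 0.64 (adjusted p = 0.0318). Of 16 PPAR regulators and targets outside the organelle 1 passed, Cpt1a, the carnitine palmitoyltransferase of mitochondria, at 0.45 (adjusted p = 0.0294). None of either list passed against controls of the same number range, and with 1 tumor left out 0 to 3 mitochondrial and 0 to 2 PPAR genes did.

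In the Arid1a-fl contrast 1 gene of each of these lists had an edgeR adjusted p under 0.05, and each was lower; they are given as a description, since this contrast chose the members (3.17% of all genes had such a p). With 1 tumor left out each list fell to 0 in at least 1 fit, and 0.276% to 6.98% of all genes were called over these fits. Against controls of the same number range, the counts were 2 further peroxisomal genes (1 higher and 1 lower), 1 PPAR gene and no mitochondrial gene, where 6.8% of all genes were called. Ddo, the peroxisomal D-aspartate oxidase, had 4.25 to 31.6 CPM in the controls and 0.544 to 7.25 in Arid1a-fl tumors, a log2 difference of -2.36 (SE 0.58), and 6 of 8 tumors lay below every control. Rxra, the partner of PPAR, had 99.8 to 157 CPM against 60.3 to 111 (-0.40, SE 0.11). Acadl, the mitochondrial long-chain acyl-CoA dehydrogenase, had 33.6 to 84.1 CPM against 25.2 to 46.1 (-0.69, SE 0.17). Ppara itself had 1.27 to 7.36 CPM against 0.794 to 4.46 (-0.29, SE 0.32), and the groups overlapped.

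In Arid1b-fl tumors, none of the 29 members passed the edgeR test, where 0.0548% of genes did. None passed with DESeq2, where 0.0443% of the 40638 genes with a p-value did, low-count genes included. At an unadjusted p under 0.05 there were 2, where 6.22% of genes had one: Pex6 at 0.31 and Pex11a at -0.37. Pex11a had 4.56 to 10.1 CPM (median 6.61, mean 6.82 ± 1.80, SD, n = 8), and 2 of the 8 tumors lay below every control (adjusted p = 0.798). Slc27a2 had 0.75 to 5.19 CPM (median 2.09) with a log2 fold change of -0.06 (SE 0.40), inside the spread of the controls. The 29 members had a median log2 fold change of -0.05 beside 0.00 over all genes, with 11 positive and 18 negative. None of the 36, 16 and 14 tested genes of the other peroxisomal, PPAR and mitochondrial lists passed, and 0, 0 and 1 had an unadjusted p under 0.05. Whether the Arid1a-fl and Arid1b-fl differences of Pex11a differed from each other was not tested.

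**Figure D4:**
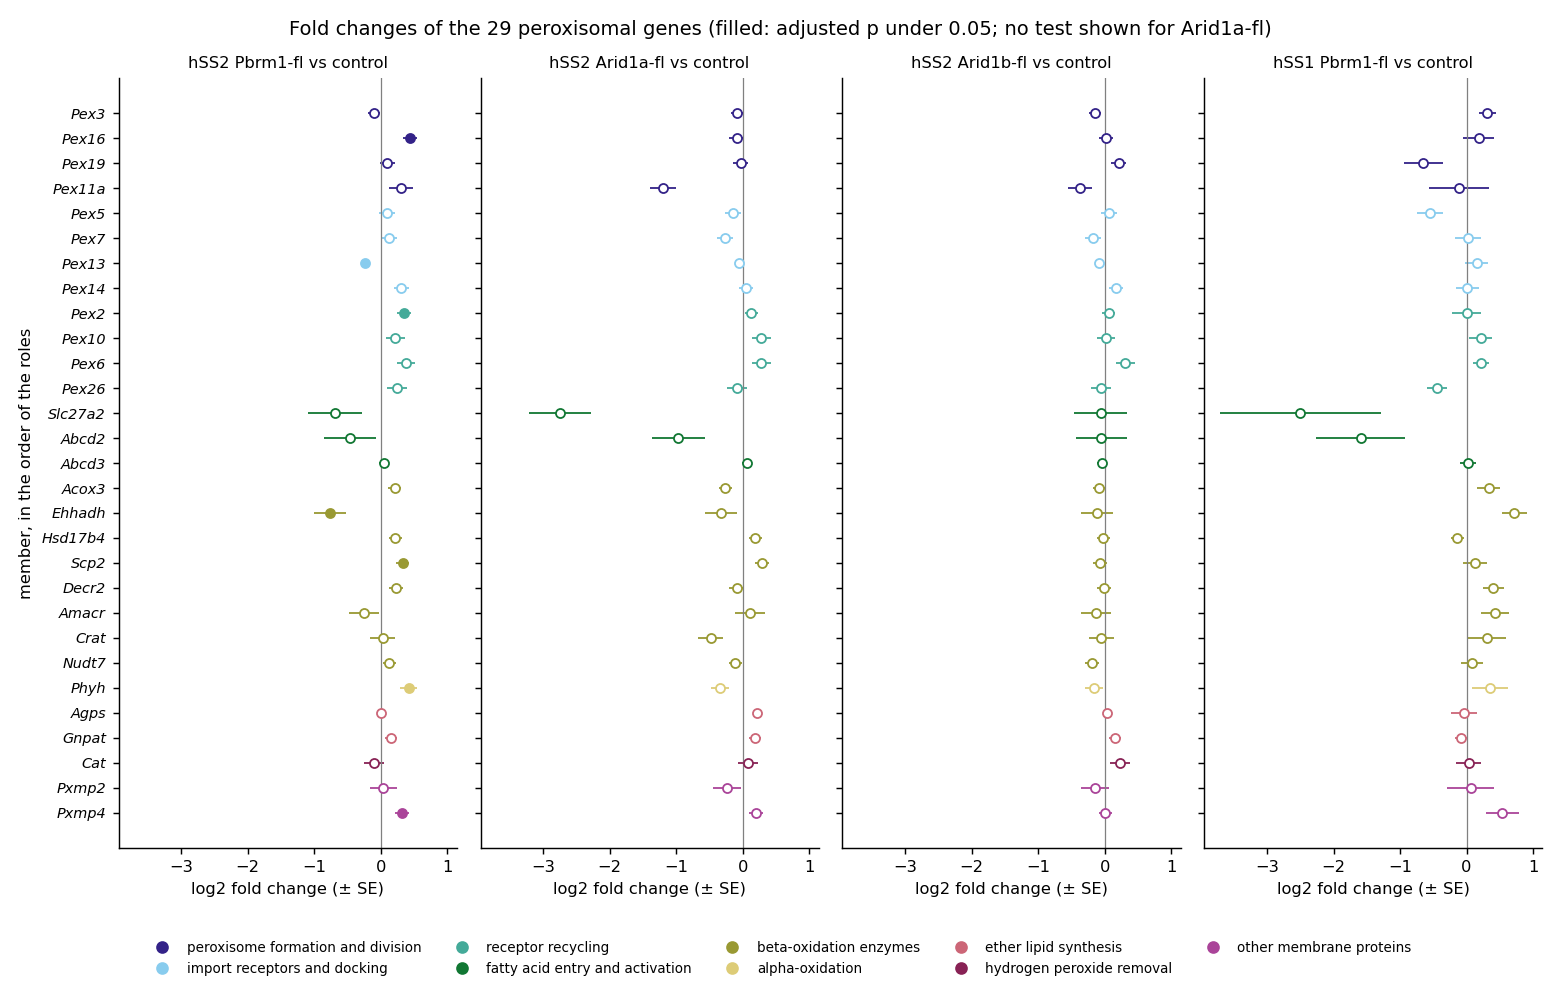
Log2 fold change of each member against the controls of its background, with bars of 1 SE, in 4 panels that share an axis (hSS2 Pbrm1-fl, Arid1a-fl, Arid1b-fl and hSS1 Pbrm1-fl). Filled points passed the edgeR test at an adjusted p under 0.05. The Arid1a-fl panel has open points because that contrast chose the genes, and Slc27a2 at -2.75 and Pex11a at -1.20 lie farthest left in it.

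In hSS1 tumors, none of the 29 members passed the edgeR test between 4 Pbrm1-fl and 5 control tumors, where 0.00562% of genes did. At an unadjusted p under 0.05 there were 6, where 17.2% of genes had one: Ehhadh, Decr2 and Pex3 with positive signs and Abcd2, Pex5 and Pex26 with negative ones. DESeq2 called 1 member, Ehhadh, at 0.73 (adjusted p = 0.00306). It called 3.66% of the 33972 genes with a p-value, low-count genes included. Pex3, which anchors the chaperone Pex19 at the membrane, had 23.6 to 31.1 CPM in the controls and 32.2 to 35.7 in all 4 Pbrm1-fl tumors, without overlap (log2 difference 0.31, SE 0.13, adjusted p = 0.267). The import receptor Pex5 had 69.4 to 90.6 CPM against 39.7 to 74.6 (-0.55, SE 0.20, adjusted p = 0.215), and Pex26, which anchors the ATPase of receptor recycling, 42.9 to 61.3 against 34.5 to 43.5 (-0.45, SE 0.15, adjusted p = 0.194), with 3 of 4 floxed tumors below every control for each. Decr2 had 30.3 to 38.8 CPM against 38 to 56.8 (0.40, SE 0.16, adjusted p = 0.253) and Abcd2 2.36 to 13.9 against 0.612 to 5.34 (-1.59, SE 0.67, adjusted p = 0.273), and both overlapped. The signs of 19 members were positive and of 10 negative (median 0.06, beside 0.01 over all genes). The 10 proliferation genes all had negative signs, with 9 at an unadjusted p under 0.05 and none past the edgeR test, and they summed to 870.0 to 2376 CPM in the controls and 467 to 1329 in Pbrm1-fl tumors. Their part in the values of the members was not tested.

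Slc27a2 spread widely within the hSS1 controls. Controls 1 to 5 had 8.07, 35.7, 34.8, 6.07 and 0.384 CPM, and the Pbrm1-fl tumors 0.665, 0.453, 5.61 and 5.3 CPM. The fitted difference was -2.50 on the log2 scale (SE 1.21, edgeR adjusted p = 0.325), and no floxed tumor lay below every control. The 2 high controls also had the highest sums of the 12 listed muscle genes, 762 and 644 CPM, against 7.24 to 96.4 CPM in the other 7 tumors. Controls 1, 4 and 5 had muscle sums of 29.8, 8.07 and 11.9 CPM. With the muscle score as a covariate the log2 fold change was -1.15 (edgeR adjusted p = 0.643). The part of muscle in the values of Slc27a2 was not tested. Pex11a had 8.16, 7.64, 6.0, 7.79 and 5.28 CPM in the controls and 4.08, 2.08, 11.9 and 7.73 in the floxed tumors, which lay on both sides of the controls (log2 fold change -0.11, SE 0.45, adjusted p = 0.923).

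Ehhadh was higher in every hSS1 Pbrm1-fl tumor than in any hSS1 control, whereas in hSS2 its mean was lower in Pbrm1-fl tumors and the groups overlapped. Controls had 7.98, 5.47, 6.17, 5.5 and 6.72 CPM (mean 6.37 ± 1.04, SD, n = 5) and Pbrm1-fl tumors 10.7, 10.5, 10.9 and 9.98 CPM (mean 10.5 ± 0.405, SD, n = 4). On the log2 scale the difference was 0.72 (SE 0.19), which did not reach the threshold with edgeR (adjusted p = 0.149). The difference between the Pbrm1 effects, tested as an interaction over all 46 tumors, was 1.49 on the log2 scale, hSS1 minus hSS2 (SE 0.39, edgeR adjusted p = 0.0292). Pbrm1 had 102 to 252 CPM in hSS1 Pbrm1-fl tumors (controls 275 to 373) and 95 to 139 in hSS2 Pbrm1-fl tumors (controls 171 to 316). The paper reports a weaker loss of Pbrm1 transcript in the hSS1 tumors. Degree of loss, fusion background and count table cannot be told apart in this interaction. The Pbrm1-fl mice of the 2 backgrounds also fell in different number ranges.

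Ehhadh was the only member past that interaction test, which 2.86% of the 21725 genes passed. Next were Pex13 at 0.39 (adjusted p = 0.0615), Pex19 at -0.75 (adjusted p = 0.0656) and Pex5 at -0.66 (adjusted p = 0.0859). Of the 29 members 10 had positive and 19 negative interactions (median -0.07, beside 0.02 over all genes). The call was lost without hSS1 Pbrm1-fl replicate 1 (adjusted p = 0.0593) or 2 (0.0525) or hSS1 control replicate 3 (0.0574). Against controls of the same number range it was 1.14 (adjusted p = 0.298), and no member passed, where 0.0389% of genes did. With DESeq2 3 members passed, and Ehhadh had an adjusted p of 0.00868. Of the 41115 genes with a DESeq2 p-value, low-count genes included, 2.82% passed. None of the 34 tested hSS1 genes of the further peroxisomal list and none of its 37 genes in the interaction passed the edgeR test. Ppara had 2.14 to 2.90 CPM in hSS1 controls and 5.66 to 9.21 in hSS1 Pbrm1-fl tumors, all 4 above every control, a difference of 1.52 on the log2 scale (SE 0.25) with an edgeR adjusted p of 0.0986.

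**Figure D5:**
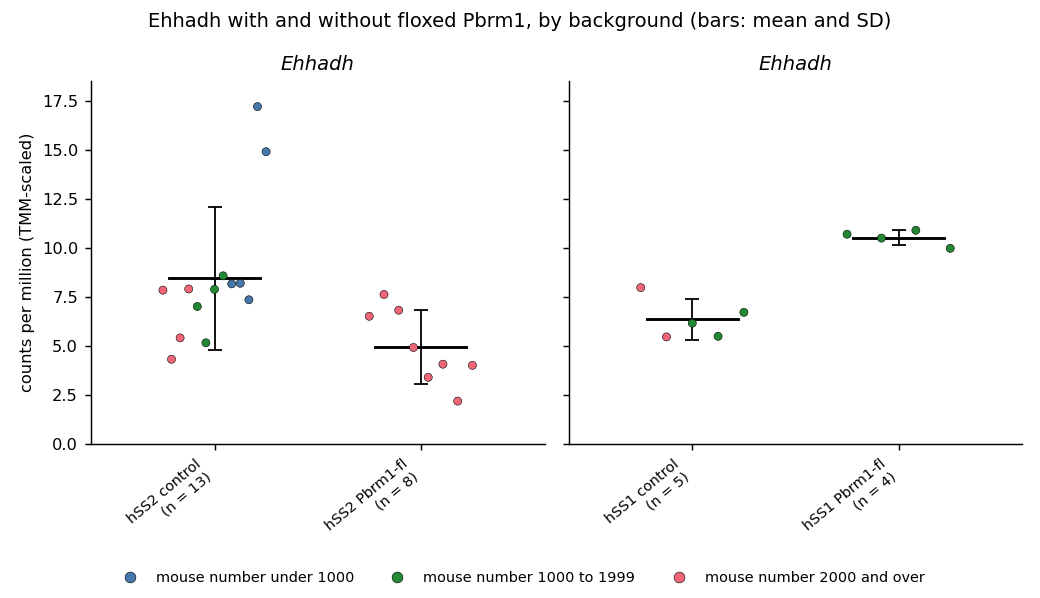
Level of Ehhadh in CPM in the control and Pbrm1-fl tumors of both backgrounds, 1 point per tumor colored by mouse number range, with bars for the mean and SD. The Pbrm1-fl tumors lie low in hSS2, at 2.2 to 7.63 CPM with some overlap of the controls, and above all controls in hSS1, at 9.98 to 10.9 CPM.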

How the data were processed

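Raw gene-level counts were deposited by the authors in 2 tables, one for each fusion background. Per the labels, tumors were fresh frozen, RNA was depleted of rRNA and libraries were directional, and the submitters' processing notes name STAR 2.7.11, featureCounts 1.6.3 and mm10. The strand and multi-mapping settings of counting are not given in the sources used here. Of the members, 13 overlap a gene on the other strand and 6 one on the same strand. Counts were filtered with filterByExpr, scaled by TMM and tested by the robust quasi-likelihood test of edgeR 4.0.16 (R 4.3.3, limma 3.58.1), with Benjamini-Hochberg adjustment over all genes and a threshold of 0.05. The 37 hSS2 tumors shared one fit, the 9 hSS1 tumors another, and the interaction used all 46. DESeq2 1.42.0, other scaling, no filter, covariates and left-out tumors were tried as alternatives. Totals were 10137668 to 21294657 counts per tumor, and intervals and floors cover counting error only. Permutation tests used scipy 1.17.1, and figures matplotlib 3.10.9. The edgeR script was tested on simulated data with 200 changed genes.

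The members and gene lists were chosen with earlier results of these data known. Values are given for Pex11a, Slc27a2, members past the threshold in any contrast, the member with the highest level per length in each role, up to 3 genes per direction of each other pathway list with the smallest adjusted p, and the nearest genes. Other members were named after their values were seen.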

Additional observations from a re-analysis of the deposited data

Results flagged for a closer look

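Among 145 combinations of a member and a genotype group with 4 to 10 tumors, 12 held a tumor set apart from the rest of its group, and chance alone gives about 1 in 20. In each, the gap between that tumor and its nearest neighbor took most of the range of the group, on the log2 scale. Of these, 3 were in Arid1a-fl replicate 1: Ehhadh was low at 2.44 CPM (others 5.83 to 10.6), Hsd17b4, the other bifunctional enzyme, was high at 109 CPM (others 69.4 to 84.9), and the membrane channel Pxmp2 was high at 6.69 CPM (others 2.46 to 3.9). In Arid1b-fl replicate 6, the docking protein Pex14 was low at 23.1 CPM (others 36 to 50.1) and Scp2 was low at 26.2 CPM (others 47.7 to 58.5). Cat stood at 204 CPM in Arid1b-fl replicate 5 (others 67.0 to 90.2), and Amacr, the racemase for branched fatty acids, at 5.84 CPM in hSS2 Pbrm1-fl replicate 3 (others 11.5 to 15).

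In hSS1 control replicate 5, the ether lipid enzyme Agps was high at 111 CPM (others 65.7 to 75.6) and the reductase Decr2 at 38.8 CPM (others 30.3 to 31.8). Decr2 was also high in hSS1 Pbrm1-fl replicate 3, at 56.8 CPM (others 38 to 39.6). In hSS1 Pbrm1-fl replicate 4, Pex26 was high at 43.5 CPM (others 34.5 to 35.1) and Pxmp4 was low at 34.4 CPM (others 41.7 to 42.2). The Pbrm1 difference of Ehhadh differed between the fusion backgrounds by 1.49 on the log2 scale (hSS1 minus hSS2, edgeR adjusted p = 0.0292 for the interaction).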

How the results depend on the processing

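Depth limits Slc27a2 most, with 0 to 14 counts per Arid1a-fl tumor. No paired analysis was possible because no mouse number occurs in more than one group and the labels name no litter. Of the 7 members called in hSS2 Pbrm1-fl tumors, the count was 4 with RLE scaling (7.38% of all genes were called then, 7.35% in the reported fit), 2 with no filter on low counts (3.03%), 1 against controls of the same number range (2.47%), 4 with only the compared groups in the fit (5.27%) and 3 without control replicate 9 (6.16%), and 2 to 10 when 1 tumor was left out (2 without Pbrm1-fl replicate 4, 7 or 8, 3 without Pbrm1-fl replicate 2 or 5 or control replicate 2, 3 or 13, and 4 without control replicate 6). Over these left-out fits 5.15% to 9.6% of all genes were called, with 5.15%, 5.27% and 5.93% without Pbrm1-fl replicates 4, 7 and 8. The Arid1a-fl counts are a description, since that contrast chose the members, and nothing is read from them. There the count of 2, Pex11a and Slc27a2, became 4 against controls of the same range (6.8% of all genes). It ran from 2 to 4 with 1 tumor left out (0.276% to 6.98% of all genes), with 4 without Arid1a-fl replicate 6 (6.98%). In hSS1 it was 1 with DESeq2 instead of 0, and over all genes DESeq2 called 1244 in hSS1 where edgeR called 1, 1740 in Arid1a-fl where edgeR called 637, 2282 in hSS2 Pbrm1-fl where edgeR called 1476, 18 in Arid1b-fl where edgeR called 11 and 1160 in the interaction where edgeR called 622. For the interaction the member count of 1 became 3 with DESeq2 (2.82% of all genes) and 0 against controls of the same range (0.0389%). It was 2 with the adipocyte covariate (3.85%). It ran from 0 to 4 with 1 tumor left out, where 1.08% to 3.9% of all genes were called. It was 0 without hSS1 Pbrm1-fl replicate 1 or 2 or hSS1 control replicate 3. It was 2 without hSS1 Pbrm1-fl replicate 3 or hSS1 control replicate 4 or 5, and 4 without hSS1 Pbrm1-fl replicate 4.

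Signs turned only among values that did not pass. In Arid1b-fl tumors Ehhadh stood at 0.13 against controls of the same range and at 0.02 without control replicate 12, in a range of -0.20 to 0.02, and Slc27a2 at 0.06 and 0.08 without Arid1b-fl replicates 1 and 6 and 0.03 without control replicate 13, in a range of -0.31 to 0.08. In hSS1, Pex11a stood at 0.03 against controls of the same range, 0.14 with the adipocyte covariate and 0.06 and 0.20 without Pbrm1-fl replicates 1 and 2, in a range of -0.57 to 0.20. The correlation of Pex11a with Slc27a2 was 0.09 when centred within number ranges, and that of Slc27a2 with the adipocyte score -0.04 without the 2 most extreme tumors. The cause of these shifts was not tested.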

Other observations

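Catalase, which is abundant in red cells, stood at 204 CPM in the library of Arid1b-fl replicate 5. The same library held 47914 CPM of erythroid genes, against 25.2 to 78.7 CPM in the other 7 tumors of its group. It was also the highest of its group in the sums of endothelial genes (1092 CPM, others 135 to 599) and macrophage genes (937 CPM, others 66.4 to 566). The cells from which its Cat transcripts came were not tested. The log2 fold change of Cat in Arid1b-fl tumors was 0.23 with that library and -0.07 without it, and it did not pass the test in either fit.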
